A study of Rattus norvegicus with 5 samples.

Results

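The classical complement pathway from C1q to C4 was followed through the 9 genes named C1qa, C1qb, C1qc, C1r, C1s, C2, C4a, C4b and Serping1, taken by symbol from a table of 17321 genes. All 9 were in the table, and all 9 were among the 13478 genes that had enough counts to be tested. RNA came from Sprague Dawley rats, from the part of the lumbar cord (L4-L6) called the dorsal horn, where sensory fibres of the hindlimb end. Tissue was taken on day 9 after CCI surgery (3 libraries) or SHAM surgery (2 libraries). CCI commonly stands for chronic constriction injury, in which loose ties around a nerve produce lasting pain, and SHAM animals are operated on but not injured. Both groups had surgery, and no unoperated animals were sequenced in the libraries used here. The sources used here give no age, sex or side of the cord. They do not state whether a library is 1 animal, so the spread behind each p-value is that between libraries and may be technical.

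The classical pathway is a cascade of plasma-type proteins that is also made locally in the nervous system. C1q, built from the products of C1qa, C1qb and C1qc, binds antibody, dying cells or synapses and carries the proteases C1r and C1s, which activate in turn. C1s then cleaves C4 and C2, whose fragments form the enzyme that splits C3, and the serpin encoded by Serping1, the C1 inhibitor, inactivates C1r and C1s. In the brain and spinal cord, C1q comes mainly from microglia, the resident macrophages, and the pathway is known for tagging synapses for removal.

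RefSeq promoter sequences of the GRCr8 build were matched by symbol for 5 of the 9 genes, C1qa, C1qb, C1r, C4a and C4b. The counts themselves were made on rn6. The sequences of C4a and C4b are shown because these genes are near-identical copies, which bears on every value of theirs given further on. In the 300-base windows around their start sites, 279 of 291 aligned bases were identical (95.9%). The stretches below are 120 bases upstream of each gene on the plus strand, at chr20:4010186-4010305 and chr20:4201803-4201922, and capitals mark the 9 bases that differ between them.
C4a: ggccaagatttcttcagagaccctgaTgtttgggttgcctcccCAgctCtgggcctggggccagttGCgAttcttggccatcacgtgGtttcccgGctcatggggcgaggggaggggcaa
C4b: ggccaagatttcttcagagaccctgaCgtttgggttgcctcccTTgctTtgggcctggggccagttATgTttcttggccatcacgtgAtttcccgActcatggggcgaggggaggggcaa
Both C4 stretches hold the palindrome CACGTG, known as an E-box, which was present in 6.42% of the 33469 promoter windows of 300 bases.

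The C1qa and C1qb promoters are shown because the C1q genes moved together. Each stretch is the 120 bases before the start on the minus strand, at chr5:154419934-154420053 and chr5:154407828-154407947, with GGAAGT, a core bound by ETS factors such as PU.1, in capitals on either strand.
C1qa: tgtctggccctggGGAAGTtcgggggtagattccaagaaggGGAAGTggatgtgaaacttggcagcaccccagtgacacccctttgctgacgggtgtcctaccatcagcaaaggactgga
C1qb: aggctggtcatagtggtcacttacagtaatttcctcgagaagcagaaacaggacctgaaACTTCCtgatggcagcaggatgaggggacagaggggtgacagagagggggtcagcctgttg
GGAAGT stood 2 times in the C1qa window and 1 time in the C1qb window, and in none of the C1r, C4a and C4b windows, while 22.6% of all windows held it. A further motif searched on both strands, TTCNNNGAA, stood 1 time in the C1qa window and in none of the other 4, against 8.87% of all windows. The 3 motifs were chosen after the sequences had been seen, and a match is a description of letters only.

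In CCI against SHAM, 4 of the 9 genes rose and none fell by edgeR's quasi-likelihood test, with the adjusted p limited to 0.05 and the fold to 1.5 or more. They were the C1q chains C1qa, C1qb and C1qc, and C4a. Of all tested genes, 2.59% were called higher and 0.26% lower. At an unadjusted p below 0.05, 7 of the 9 were higher and none was lower, against 9.65% higher and 6.32% lower of all tested genes. DESeq2 called 7 of the 9 higher and none lower, where it called 4.04% of all tested genes higher. With CCI 1 as the only CCI library, a setting chosen after seeing the data that takes its spread from the SHAM pair alone, 7 were called higher, where 2.73% of all genes were. All 9 had a positive log2 fold change, with a median of 2.59, against a median of 0.01 over all tested genes. In 8 of the 9, all except C1r, every CCI library lay above both SHAM libraries, which was also so for 18.6% of all tested genes.

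**Figure D1:**
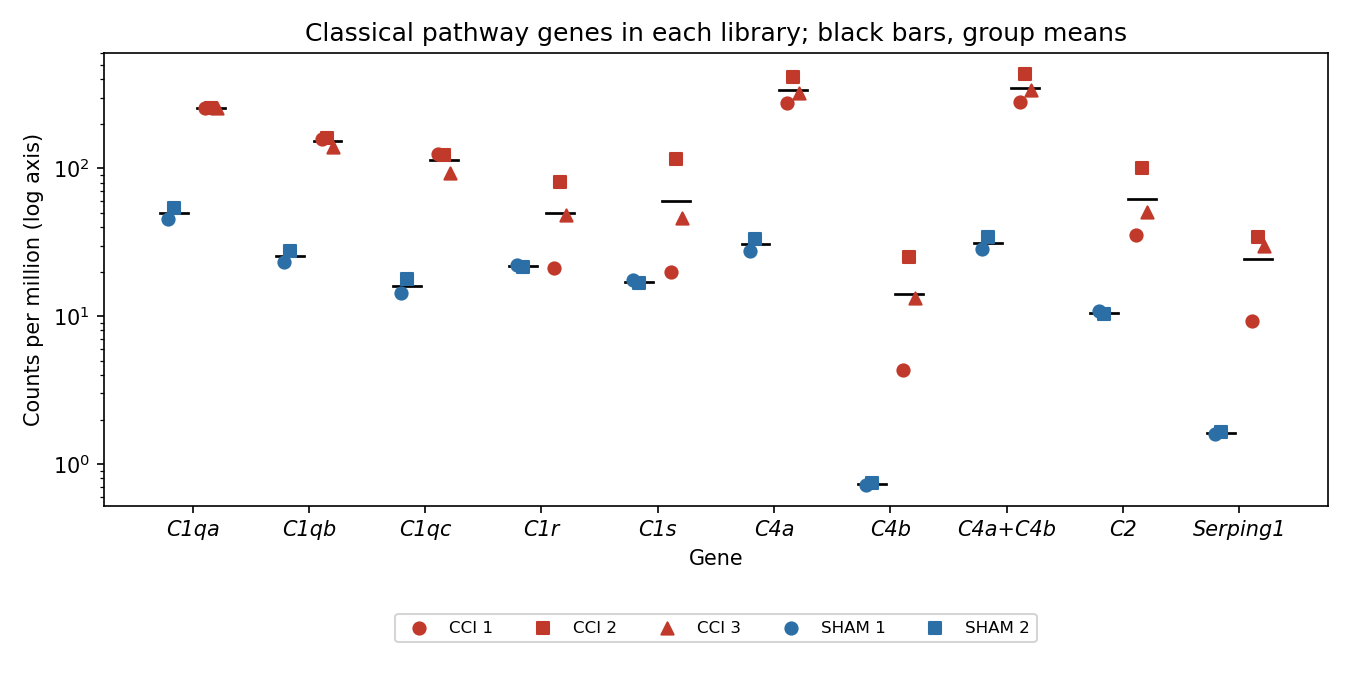
CPM (counts scaled to library size, log axis) of each gene and of the sum of C4a and C4b, with 1 point per library (red CCI, blue SHAM) and black bars at group means. The CCI points of C1qa lie on top of each other near 255 CPM, while those of C1r run from 21.3 to 80.7 CPM and reach the SHAM points.

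The recognition genes were high to nearly the same degree in every CCI library. C1qa stood at 254, 256 and 254 CPM (counts scaled to library size) in CCI 1, CCI 2 and CCI 3, and at 45.6 and 53.7 CPM in SHAM 1 and SHAM 2. The CCI libraries differed from each other by far less than they differed from SHAM, and the groups did not overlap. C1qa rose by 2.36 on the log2 scale (SE 0.12, 5.13-fold, adjusted p = 3.82e-05) and ranked 2 of all tested genes by p.

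C1qb stood at 158, 161 and 140 CPM in CCI, against 23.2 and 27.4 CPM in SHAM, again with no overlap. C1qb rose by 2.59 on the log2 scale (SE 0.13, 6.04-fold, adjusted p = 3.82e-05). Its estimated counts were not whole, so some of its reads fitted another row and its values are less certain than those of C1qa and C1qc.

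C1qc, the last of the chains, had 125, 123 and 92.5 CPM in CCI, against 14.4 and 17.8 in SHAM. CCI 3 was the lowest CCI library for C1qc, yet stood far above both SHAM libraries. C1qc rose by 2.82 (SE 0.18, 7.06-fold, adjusted p = 0.000239).

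The balance between the chains differed slightly between the groups. In the authors' deposited length-scaled values (named TPM), C1qa made up 49.6%, 49.7% and 54.6% of the C1q total in CCI 1 to CCI 3, and 57.2% and 56.6% in SHAM. C1qc made up 23.3%, 22.9% and 19.0% in CCI, and 17.3% and 18.0% in SHAM. The groups did not overlap in either share, although CCI 3 lay near SHAM. These shares were chosen after the values had been seen and were not tested.

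C1r and C1s, the proteases of the C1 complex, were high in CCI 2 and CCI 3 but not in CCI 1. C1r stood at 21.3, 80.7 and 48.1 CPM in CCI 1, CCI 2 and CCI 3, and at 22.3 and 21.4 CPM in SHAM. CCI 1 was thus below both SHAM libraries, and the groups overlapped. The log2 fold change of C1r was 1.20 (SE 0.63, 95% interval -0.54 to 2.94, adjusted p = 0.447). Left without CCI 1, the comparison gave 1.56 (adjusted p = 0.0149), which passed, and without CCI 2 it gave 0.67. With CCI 1 as the only CCI library the value was -0.05 (adjusted p = 0.98). The counts of C1r were not whole, so its row also shares reads.

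C1s stood at 19.8, 115 and 45.8 CPM in CCI, against 17.5 and 16.7 CPM in SHAM. CCI 1 exceeded the higher SHAM library only slightly, while CCI 2 held the highest value. The log2 fold change of C1s was 1.82 (SE 0.93, 95% interval -0.90 to 4.53, adjusted p = 0.45), and it did not pass under any of the 16 alternatives. Without CCI 2 the value was 0.94, and without CCI 2 and CCI 3 it was 0.20.

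**Figure D2:**
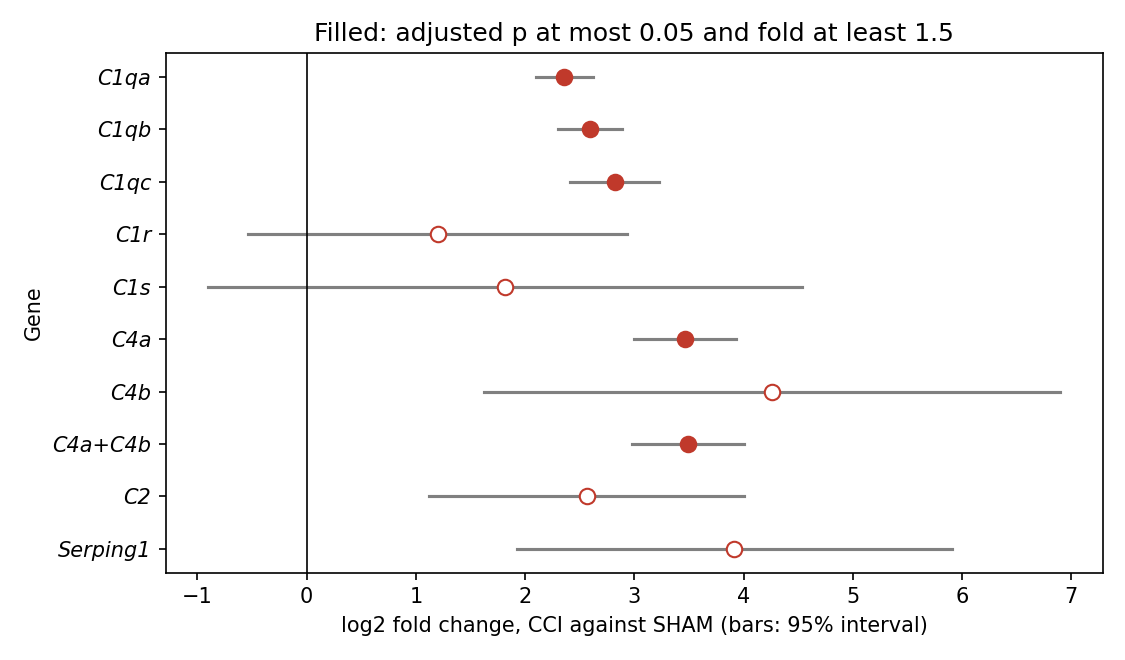
Log2 fold change of each gene and of the C4 sum in CCI against SHAM (horizontal axis), with bars for the 95% interval; filled points passed the test. Intervals of C1qa, C1qb, C1qc, C4a and the C4 sum are short, and those of C1r (-0.54 to 2.94) and C1s (-0.90 to 4.53) include 0.

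C4, the substrate of C1s, showed the largest change among the genes that rose. C4a stood at 276, 412 and 322 CPM in CCI 1 to CCI 3 and at 27.7 and 33.3 CPM in SHAM. Every CCI library was several times above both SHAM libraries, with CCI 2 the highest. C4a rose by 3.46 (SE 0.20, 11.04-fold, adjusted p = 0.000239).

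The row named C4b was low and uneven, at 4.29, 24.9 and 13.3 CPM in CCI, against 0.719 and 0.746 CPM in SHAM. The SHAM values rest on 15.8 and 14.9 estimated counts. Its log2 fold change of 4.26 (SE 0.997, 95% interval 1.62 to 6.90, adjusted p = 0.146) did not pass, although the groups did not overlap. It passed under 6 of the 16 alternatives, among them without CCI 1 (4.69, adjusted p = 0.000741), without CCI 2 (3.56, adjusted p = 0.048) and with DESeq2 (adjusted p = 0.000108). Over the 16, the adjusted p ran from 0.000105 to 0.627. The row held 1.53%, 5.71% and 3.97% of all C4 counts in the CCI libraries and 2.53% and 2.19% in SHAM. Neither C4 row had whole counts, and the RefSeq gene table lists C4b among the synonyms of C4a, so the split between the rows is uncertain.

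Summed, C4a and C4b had 280, 437 and 336 CPM in CCI, against 28.5 and 34.1 CPM in SHAM. The groups were as far apart as for C4a alone. The sum rose by 3.49 on the log2 scale (SE 0.22, 11.2-fold, adjusted p = 0.00037), and it ranked 20 of all tested genes by p.

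C2, whose product joins the C4 fragment in the enzyme that cleaves C3, was above SHAM in every CCI library but to unequal degrees. It stood at 35.5, 101 and 50.5 CPM in CCI, against 10.8 and 10.3 CPM in SHAM. The lowest CCI library, CCI 1, was above 3 times either SHAM value. The log2 fold change of C2 was 2.56 (SE 0.55, 95% interval 1.12 to 4.01, adjusted p = 0.117) and did not pass. It passed under 8 of the 16 alternatives, among them without CCI 1 (2.84, adjusted p = 0.0193), without CCI 2 (2.03, adjusted p = 0.000105) and with DESeq2 (adjusted p = 0.000566). Over the 16, the adjusted p ran from 6.19e-05 to 0.558.

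Serping1, the inhibitor of the C1 proteases, was scarce in SHAM. It stood at 9.30, 34.1 and 30.01 CPM in CCI, against 1.59 and 1.65 CPM in SHAM, the latter from 35 and 33 counts. CCI 1 was again the lowest CCI library and was still clear of SHAM. The log2 fold change of Serping1 was 3.91 (SE 0.75, 95% interval 1.92 to 5.90, adjusted p = 0.0937), which missed the threshold. It passed under 6 of the 16 alternatives, among them without CCI 1 (4.30, adjusted p = 2.04e-05) and with DESeq2 (adjusted p = 2.87e-06). Over the 16, the adjusted p ran from 1.81e-06 to 0.539.

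Compared per length in the deposited TPM values, C1q chains were the most abundant members in both groups. In SHAM the means were 71.8 for C1qa, 32.1 for C1qb and 22.3 for C1qc, followed by C1r at 9.78, C1s at 7.35, the C4 sum at 6.99, C2 at 5.06 and Serping1 at 1.15. C1s and the C4 sum overlapped between the SHAM libraries, and the other neighbours in this order did not. In CCI the C4 sum came after C1qa (375), C1qb (197) and C1qc (160 TPM), at 79.96 TPM. C2 (30.5), C1s (26.4), C1r (22.9) and Serping1 (17.7 TPM) followed, and these 4 overlapped each other between libraries, while the higher neighbours did not.

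Ratios within a library, which do not depend on scaling between libraries, showed how unevenly the steps of the pathway differed. The log2 ratio of C1q counts to those of C1r and C1s together was 3.70, 1.47 and 2.37 in CCI 1 to CCI 3, and 1.06 and 1.38 in SHAM. The groups did not overlap, although CCI 2 lay next to SHAM, and CCI 1 lay far above it. The mean difference was 1.29 (two-sided exact permutation p = 0.2), and 5 libraries in groups of 3 and 2 allow no p below 0.1. Without CCI 1 the difference was 0.70.

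The log2 ratio of Serping1 to C1r and C1s was -2.14, -2.52 and -1.64 in CCI, and -4.65 and -4.53 in SHAM. All CCI libraries, CCI 1 included, were well above SHAM. The mean difference was 2.48 (two-sided exact permutation p = 0.1, the smallest the design allows), and it was 2.26 to 2.69 when any library was left out.

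The log2 ratio of C4 to C2 was 2.98, 2.11 and 2.73 in CCI, and 1.40 and 1.73 in SHAM. The groups did not overlap. The mean difference was 1.05 (two-sided exact permutation p = 0.2), which did not reach the smallest p the design allows.

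Cell type markers differed between the libraries in which C1r, C1s and Serping1 differed. In these bulk samples, more cells of a type and more RNA per cell cannot be told apart. The summed level of 6 fibroblast markers was 146, 803 and 671 CPM in CCI 1 to CCI 3, and 155 and 190 CPM in SHAM. CCI 1 was thus at the SHAM level, as it was for C1r and C1s. Pdgfra alone held 90.0 CPM of the fibroblast sum in CCI 1, and 93.0 and 92.1 CPM in SHAM. In CCI 1 each of the others, Col1a1, Col1a2, Col3a1, Dcn and Lum, was also below the higher SHAM library.

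Among the other markers that were low in CCI 1, 8 Schwann cell markers summed to 91.5, 282 and 581 CPM in CCI, against 79.1 and 91.5 CPM in SHAM. T cell markers (6 genes) summed to 4.44, 14.8 and 6.68 CPM in CCI, against 4.14 and 3.55 CPM in SHAM. Border macrophage markers (6 genes) summed to 23.4, 46.5 and 57.3 CPM in CCI, against 26.9 and 30.1 CPM in SHAM. The part of these cell types in the values of C1r, C1s, C2, C4b and Serping1 was not tested. No marker of these 4 lists was at 0 in all libraries.

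The summed level of microglial markers differed little among the CCI libraries. Of 10 listed, 9 were in the table and 6 rose, with sums of 632, 731 and 641 CPM in CCI, against 278 and 313 CPM in SHAM. Relative to SHAM, the microglial sum was higher by 1.10, 1.31 and 1.12 on the log2 scale, less than the 2.36 to 2.37 of C1qa in the same libraries. Csf1r alone held 304 to 354 CPM of the sum in CCI, and single markers were less even. Tmem119, a marker of resting microglia, stood at 13.5, 25.8 and 25.6 CPM in CCI, against 11.4 and 25.5 CPM in SHAM, and did not pass (log2 fold change 0.23). Aif1 stood at 37.8, 48.4 and 31.2 CPM in CCI, against 7.001 and 12.3 CPM in SHAM, and rose. The part of microglial number in the C1q values was not tested.

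Astrocyte markers (8 genes, of which 1 rose) summed to 8434 to 10700.4 CPM in CCI, against 7337 and 7384 CPM in SHAM. That difference was of Gfap, the main astrocyte filament, which rose by 1.04 on the log2 scale. The other 7 summed to 5590, 5079 and 4941 CPM in CCI, against 5284 and 5355 CPM in SHAM, so the groups overlapped. Aldh1l1 (-0.43), Aldoc (-0.34) and Fgfr3 (-0.33) were below SHAM in every CCI library and did not pass. Aqp4 (0.29) and Slc1a3 (0.21) were above SHAM in every CCI library and did not pass either. Gja1 (0.27) and Slc1a2 (-0.09) overlapped between the groups.

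Neutrophil markers summed to at most 1.38 CPM in any library and markers of hepatocytes, the main source of complement in plasma, to at most 4.07 CPM. Dorsal horn neuron markers, which check the labelled tissue, were all present and summed to 1167 to 1277 CPM in CCI and 1180 to 1214 CPM in SHAM. The libraries held 20053353 to 23673198 counts, and ribosomal RNA rows held 15.98% of the counts in CCI 3 and 2.18% to 2.71% in the others. Without those rows the same number of members, 4, was called.

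**Figure D3:**
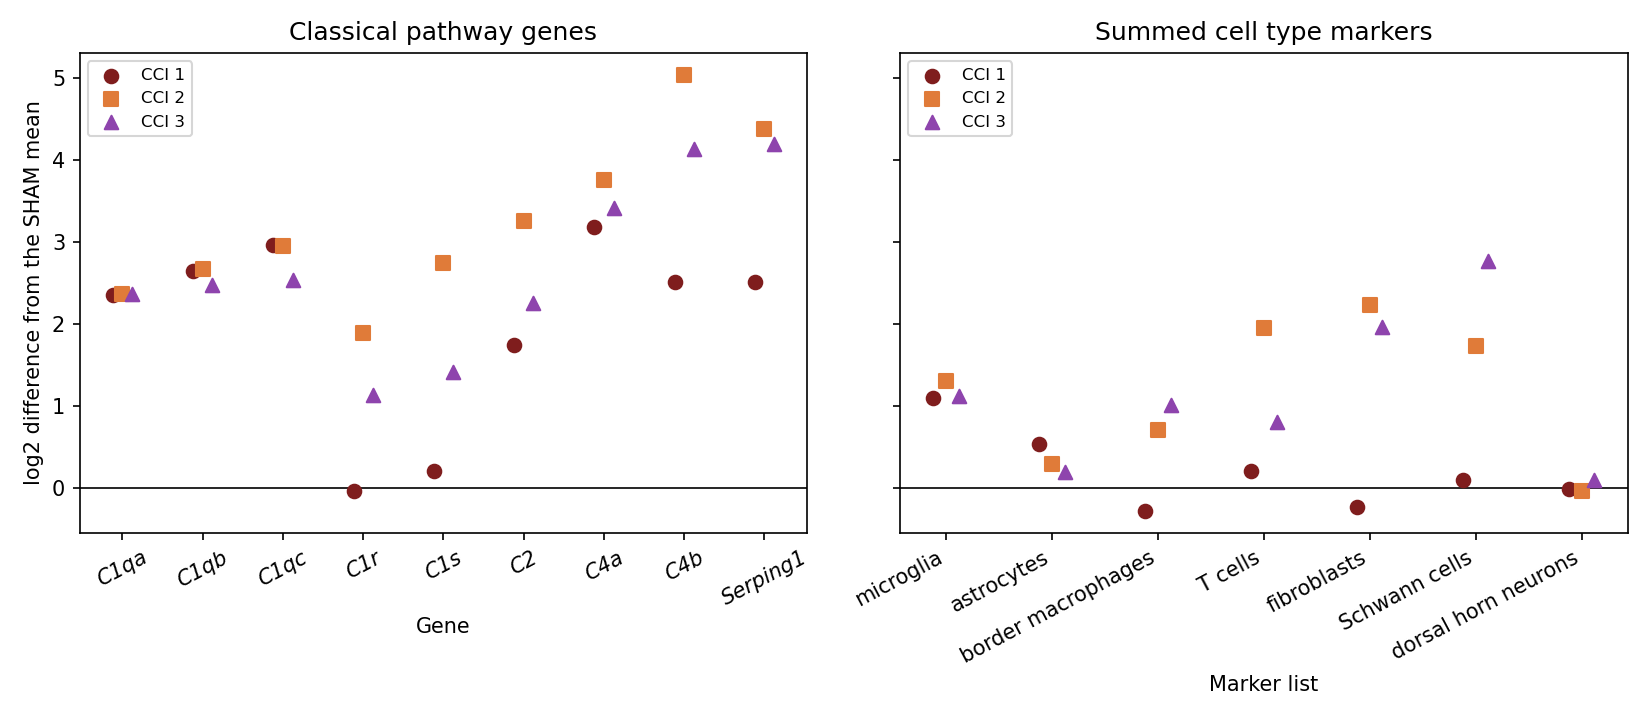
Log2 difference of each CCI library from the SHAM mean, for the pathway genes (left) and for the summed CPM of cell type marker lists (right), with 1 point per CCI library. CCI 1 lies at -0.04 for C1r, 0.21 for C1s and -0.23 for fibroblast markers, and at 2.36 for C1qa and 1.10 for microglial markers.

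The rest of the complement system was described through lists of 70 genes, of which 64 were in the table and 51 were tested. Of these, 7 rose and none fell by edgeR's quasi-likelihood test, with a median log2 fold change of 0.30. Of the classical pathway genes, 4 of 9 rose, with a median of 2.59. Of all tested genes, 2.59% were called higher and 0.26% lower, with a median of 0.01. At an unadjusted p below 0.05, 19 of the 51 were higher and 1 was lower, against 9.65% higher and 6.32% lower of all tested genes. DESeq2 called 13 of the 51 higher and none lower, and the likelihood ratio test 12 higher and none lower. Of all tested genes, these tests called 4.04% and 4.24% higher. The other complement genes called higher numbered 11 without CCI 1 and 11 without CCI 2, where 4.8% and 3.03% of all tested genes were called higher. Their number thus varied with the libraries used, as did the share of all genes called.

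Downstream of C4, 1 of 3 tested genes rose in the list of C3 and the terminal components. At an unadjusted p below 0.05, 2 of the 3 were higher, against 9.65% of all tested genes. DESeq2 and the likelihood ratio test each called 2. C6 stood at 0.787, 11.7 and 3.92 CPM in CCI, against 0.136 and 0.45 CPM in SHAM. It did not pass edgeR's quasi-likelihood test (log2 fold change 4.23, SE 1.52, adjusted p = 0.295). C3, the central protein that all pathways cleave, stood at 399, 454 and 404 CPM in CCI, against 70.8 and 63.6 CPM in SHAM. It was as even over the CCI libraries as C1q, and it ranked 1 of all tested genes by p (log2 fold change 2.64, SE 0.12, adjusted p = 3.82e-05).

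In the lectin pathway, which reaches C4 and C2 through other proteases, 1 of 4 tested genes rose. Fcna, which encodes a ficolin that recognises sugars, stood at 1.85, 2.14 and 2.65 CPM in CCI, against 0.409 and 0.65 CPM in SHAM, so it rests on few counts (log2 fold change 2.06, SE 0.39, adjusted p = 0.0262). At an unadjusted p below 0.05, 3 of the 4 were higher, and DESeq2 and the likelihood ratio test each called 2. Fcnb, another ficolin gene, stood at 1.53, 6.27 and 1.59 CPM in CCI, against 0.318 and 0.25 CPM in SHAM, and did not pass (log2 fold change 3.45, SE 0.87, adjusted p = 0.11). The lectin pathway proteases Masp1 and Masp2 had log2 fold changes of 0.53 and 0.11, and neither passed.

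None of the 3 alternative pathway genes passed. All 3 were higher at an unadjusted p below 0.05, DESeq2 called 2 of them and the likelihood ratio test 1. Cfp, which encodes properdin, differed by 0.59 on the log2 scale (SE 0.16, with an adjusted p of 0.105), and Cfd, which encodes factor D, by 2.23 (SE 0.60, adjusted p = 0.108).

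Of 11 tested regulators, 1 rose and 10 did not pass, with the same count by DESeq2, the likelihood ratio test and limma-voom. Their median log2 fold change was 0.18. At an unadjusted p below 0.05, 3 of the 11 were higher and none was lower, against 9.65% higher and 6.32% lower of all tested genes. Of the 11, 7 had a positive log2 fold change. Among the 10 were Clu (0.53), Cr1l (0.46) and the inhibitors at the cell surface Cd46 (0.39), Cd55 (0.16) and Cd59 (-0.09). Cfi (-0.54), Vtn (-0.19) and Susd4 (-0.16) were also negative. By edgeR's quasi-likelihood test the adjusted p of Clu was 0.0571.

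Among 10 tested receptors for complement fragments, 4 rose, where 2.59% of all tested genes were called higher. At an unadjusted p below 0.05, 5 of the 10 were higher, against 9.65% of all tested genes. DESeq2 and the likelihood ratio test each called 5, where they called 4.04% and 4.24% of all tested genes higher. Itgam and Itgb2, the chains of complement receptor CR3, rose by 1.82 (SE 0.13, adjusted p = 0.000286) and 1.23 (SE 0.14, adjusted p = 0.00227) on the log2 scale. The anaphylatoxin receptor genes C5ar2 and C3ar1 rose by 1.71 (SE 0.26, adjusted p = 0.00937) and 1.44 (SE 0.26, adjusted p = 0.019). C5ar1, another such gene, differed by 1.98 (SE 0.49, adjusted p = 0.0837) and did not pass edgeR's quasi-likelihood test. Counts of Itgb2 and C3ar1 were not whole, which leaves those less certain.

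Pentraxins that bind C1q and relatives that share its globular domain gave no call in the main test. Of 4 tested pentraxin genes, 2 were higher at an unadjusted p below 0.05, and DESeq2 and the likelihood ratio test each called 1. The neuronal pentraxin Nptx2 differed by 0.68 on the log2 scale (SE 0.18, adjusted p = 0.105) and its receptor gene Nptxr by 0.28 (SE 0.11, adjusted p = 0.258).

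Of 16 tested relatives of C1q, such as the cerebellins, which organise synapses, 1 was higher and 1 lower at an unadjusted p below 0.05, a share close to that of all tested genes (9.65% higher and 6.32% lower). DESeq2 and the likelihood ratio test called none of them. Cbln2 differed by 0.34 on the log2 scale (SE 0.12, adjusted p = 0.202) and C1qtnf5 by -0.34 (SE 0.10, adjusted p = 0.134).

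**Figure D4:**
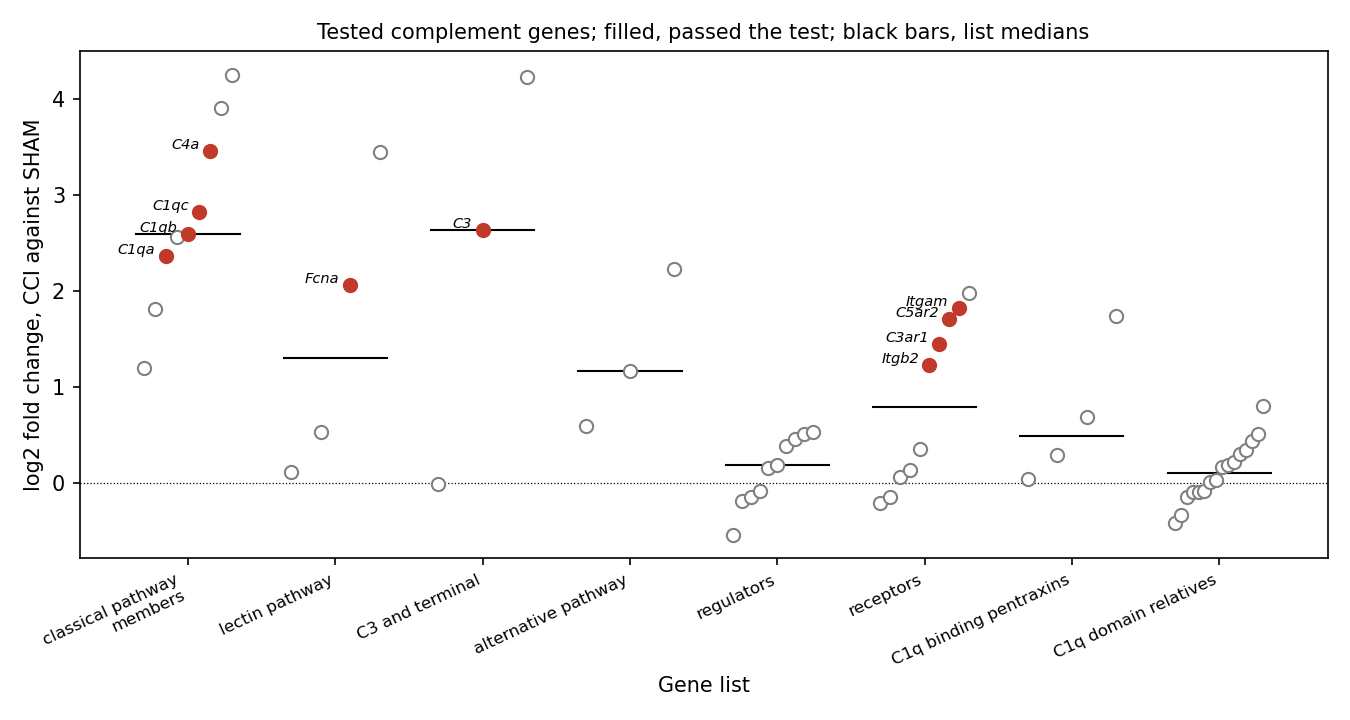
Log2 fold change in CCI against SHAM (vertical axis) of the tested genes in the classical pathway and in 7 lists of other complement genes, 1 gene not drawn; filled points passed the test and black bars are list medians. The classical pathway genes have a median of 2.59 and the C1q domain relatives one of 0.10.

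Genes whose profile over the 5 libraries was nearest to a set of members were ranked among 12751 genes with a mean of at least 1 CPM, by the root mean square difference of centred log2 CPM. The 6 nearest to the mean of the C1q chains were Gapt (0.09), C3 (0.15), Cd4 (0.17), Vav1 (0.18), Fcgr1a (0.19) and Adgre1 (0.19), and all 6 were called higher. The 6 nearest to the mean of C1r, C1s and Serping1 were Ifitm1 (0.19), Gda (0.20), Cyp1b1 (0.25), Nupr1 (0.25), Cp (0.26) and Plbd1 (0.27), whose log2 fold changes of 2.02 to 2.83 did not pass edgeR's quasi-likelihood test. No gene stood in both sets. With 5 libraries in 2 groups, such nearness mostly reflects the step between the groups and the order of the CCI libraries.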

How the data were processed

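Kallisto 0.44.0 and the build rn6 are named in the submitters' processing notes. From them the authors deposited estimated counts, 1 row per gene symbol. The authors also deposited a length-scaled signal in a table named TPM, which they scaled by trimmed mean of M-values per the series' design text. It is called a signal because 1 of its columns sums to more than TPM can. Annotation: not given in the sources used here. The treatment label set the groups; replicates were numbered by accession and pair nothing.

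Counts were rounded, filtered with filterByExpr (minimum count 10) and fitted in R 4.3.3 with edgeR 4.0.16: TMM, robust glmQLFit, two-sided glmQLFTest, 3 residual degrees of freedom, Benjamini-Hochberg over every tested gene. Both call thresholds are the series' own. Each SE equals the log2 fold change over the root of F. For the C4 sum, both rows were replaced by it and the fit repeated. Scripts were checked on simulated data. Alternatives used the likelihood ratio test, limma-voom (limma 3.58.1), DESeq2 1.42.0, other scalings or filters, log2 TPM (pseudocounts 0.5 and 0.1), or fewer libraries.

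Members, lists, thresholds and tests were chosen with earlier results of these data known. Named were all members and up to 4 called genes per list by p, or the 2 of smallest p where none was called. The 6 genes nearest to each of 2 sets of members were also named. Fcnb, Masp1, Masp2, Clu, Cr1l, Cd46, Cd55, Cd59, Cfi, Vtn, Susd4, C5ar1 and C6 were added with their values known. An item is not reported here, but is kept in the counts and medians. Matplotlib 3.10.9 drew the figures.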

Additional observations from a re-analysis of the deposited data

How the results depend on the processing

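C1qa, C1qb, C1qc, C4a and the C4 sum kept their direction and their call under all 16 alternatives, 14 planned and 2 chosen after seeing the data; the C4 sum ranged from 3.15 to 3.63 on the log2 scale. The number of the 9 genes called higher was 4 in the main test, where 2.59% of all tested genes were called higher. It was 7 with the likelihood ratio test (4.24% of all tested genes), 7 with DESeq2 (4.04%) and 7 with the TPM table at a pseudocount of 0.1 (2.86%). It was 8 without CCI 1 (4.8%), 6 without CCI 2 (3.03%) and 4 without CCI 3 (2.18%). None was called lower under any alternative. C1r reversed to -0.049 with CCI 1 as the only CCI library. Other complement genes called higher numbered 7 in the main test, 12 with the likelihood ratio test, 13 with DESeq2, 12 with CCI 1 as the only CCI library, and 2 to 11 when any library was left out. Over all genes, 384 were called in the main test, 646 with the likelihood ratio test, 614 with DESeq2, 763 without CCI 1, 61 without SHAM 1 and 78 without SHAM 2. The 3 ratios kept their sign under every alternative run. The cause of these differences was not tested. No paired analysis was possible because the labels give no replicate numbers. Depth limits C4b and Serping1 in SHAM, which rest on few counts.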

Other observations

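The genes next to the members on the chromosome were looked at after the members' values were known; some, such as the complement gene Cfb beside C2, are relatives of the pathway. In the GRCr8 gene order, the 2 nearest tested protein-coding genes on each side of the members came to 24 distinct genes. By edgeR's quasi-likelihood test none of the 24 passed, with a median log2 fold change of 0.06. At an unadjusted p below 0.05 there were 5, Wnt4, Cfb, Gpsm3, RT1-Da and RT1-Db2, all higher. At that p, 9.65% of all tested genes were higher and 6.32% lower. DESeq2 called 3 of the 5, Wnt4, Cfb and RT1-Da, where it called 4.04% of all tested genes higher. Next to the C1q cluster, Ephb2 and Zbtb40 had log2 fold changes of -0.05 (SE 0.13) and 0.04 (SE 0.11). Beside C1r and C1s, the adjacent genes C1rl and Lpcat3 had 0.97 (SE 0.47) and 0.03 (SE 0.13). Beside C4a, Stk19 had -0.12 (SE 0.20), and beside Serping1, Ypel4 had -0.06 (SE 0.10). The highest value among the neighbours was that of RT1-Da, an MHC class II gene near C4b, at 4.92 (SE 1.56, adjusted p = 0.295). It was followed by Wnt4 near the C1q cluster at 2.26 (SE 0.81, adjusted p = 0.273).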
